A study of Arabidopsis thaliana with 9 samples.

Results

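The deposited lists of genes that differed between Arabidopsis thaliana seedlings with altered SRT1 and wild-type seedlings held 39 genes whose symbols name expansins, xyloglucan endotransglucosylase/hydrolases (XTH), arabinogalactan proteins (AGP), fasciclin-like arabinogalactan proteins (FLA) or genes called EXL. They were found by gene symbol alone: the symbol, without a leading AT, had to begin with EXP, EXL, XTH, XTR, AGP or FLA followed by A, B or a digit. The 39 genes are 39 of 2507 genes listed in any of 4 lists, and 49 of their 3092 entries. They were 7 alpha-expansins, 2 beta-expansins, 1 expansin-like B gene, 7 XTH genes, 12 AGP genes, 5 FLA genes and 5 EXL genes. None of the 5 EXL genes is an expansin by its RefSeq product: 4 are named EXORDIUM-like, and EXL1 has the product name of EXORDIUM itself (phosphate-responsive 1 family), so the 5 are described apart as EXORDIUM-like genes.

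RNA sequencing was done on 3 libraries from an SRT1 overexpression line (OX, line OX-SRT1-1), 3 from an SRT1 RNA interference line (RNAi, line RNAi-1) and 3 from wild type (Col). The deposited tables head their columns ox5, r5 and col, and do not say how ox5 and r5 relate to the names of the lines. All were 14-day-old seedlings grown on MS medium in a climate chamber without a stated treatment, with leaf, stem and root given as the tissue. SRT1 encodes a sirtuin, an enzyme that removes acetyl groups from proteins with NAD as co-substrate. Each transgenic group is 1 line, the labels name neither the promoter of the overexpression construct nor the target stretch of the RNAi construct, and whether replicate libraries came from different plants is not stated, so the authors' p-values may measure technical spread only.

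Plant cells enlarge when the wall of cellulose, xyloglucan and pectin yields to turgor. Expansins loosen the contacts between wall polymers without cutting them, and XTH enzymes cut xyloglucan chains and rejoin or hydrolyse them. AGPs are heavily glycosylated proteins of the cell surface rich in proline, alanine, serine and threonine, many of them held to the membrane by a lipid anchor, and FLAs carry fasciclin domains in addition, which are linked to adhesion. EXORDIUM and its relatives are extracellular proteins known from work on brassinosteroid-dependent growth in Arabidopsis.

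The values are FPKM (fragments counted per length of transcript and scaled to the mapped fragments), and each group has a single deposited value for a gene. No SD, interval or test could therefore be computed, and depth is unknown. That a gene differed is the authors' call, and the direction given for the RNAi tables rests on the matching of columns described next. The lists hold only genes at least 2-fold apart. A gene that is in no list was not analysed here, and its absence does not show that it did not change. SRT1 itself was 6.05 FPKM in OX and 1.75 FPKM in wild type, a 3.46-fold increase in OX. The RNAi tables give SRT1 at 2.37 FPKM under the RNAi label and at 0.419 FPKM under the wild-type label, a 5.67-fold difference. The log2 ratio printed for it in the authors' deposited table is 2.37 in size, whereas the values themselves give 2.50.

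The 2 RNAi lists label their columns in opposite ways. Every member found there is in the list titled as higher in RNAi, where the wild-type label stands on the first column, the RNAi label on the second, and the second column is the higher. The other list has these labels the other way round. In both lists the second column carries the values of the wild-type column of the OX tables, scaled by a near-constant factor. Over the 10 members present in both comparisons its ratio to that wild-type column lay between 0.926 and 0.957 with a median of 0.943, and over 529 other genes it lay between 0.899 and 0.983 with a median of 0.946. SRT1, left out of these genes, did not follow: its second column held 0.419 FPKM, against 1.75 FPKM in the wild-type column of the OX tables. The first columns of the 10 members had ratios of 0.252 to 1.32 (RNAi table over OX table). The second column is therefore called the shared column here, and RNAi-table values are given as the first column against the shared column. Read by titles and column labels alone, every RNAi-table direction below would be the opposite, with the members higher in RNAi.

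All 18 members listed in the OX tables were lower in OX and 0 were higher. Of all 1966 OX entries 42.3% were lower, and of those with a symbol 48.2%. A regular locus is written without blanks, is shared with no other entry and covers at most 1 gene. Loci with blanks occurred in 14 lower and 0 higher OX entries, and in 14 lower and 0 higher entries of the RNAi tables. Among nuclear OX entries with a symbol and a regular locus 43.0% were lower, and 71.9% of these within the members' range of locus length, 584 to 2314 bases. All 31 members listed in the RNAi tables had a first column below the shared column and 0 had one above it. Of all 1126 RNAi entries 66.5% were lower, 69.1% of those with a symbol, 63.9% of the nuclear regular ones with a symbol and 74.8% of these within the members' range of length. Lower entries were more common among loci of the members' length than among all entries, so the members' direction is read beside these shares. Level went with direction too. The shared column was above 100 FPKM in 133 of 832 lower and 1 of 1134 higher OX entries. In the RNAi tables it was so in 75 of 749 lower and 4 of 377 higher entries. The shared column is the higher of the 2 values in lower entries only, and the part of level in the members' direction was not tested. Set against the genome instead, 14.2% of the 127 genes that RefSeq names in these families were listed as lower in OX, against 2.60% of 27444 nuclear protein-coding genes, and 24.4% were listed in the RNAi tables with a first column below the shared column (the list titled as higher in RNAi), against 2.38%. The share of the genome listed as higher in OX was 3.80%, and that listed with a first column above the shared column was 1.25%.

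**Figure D1:**
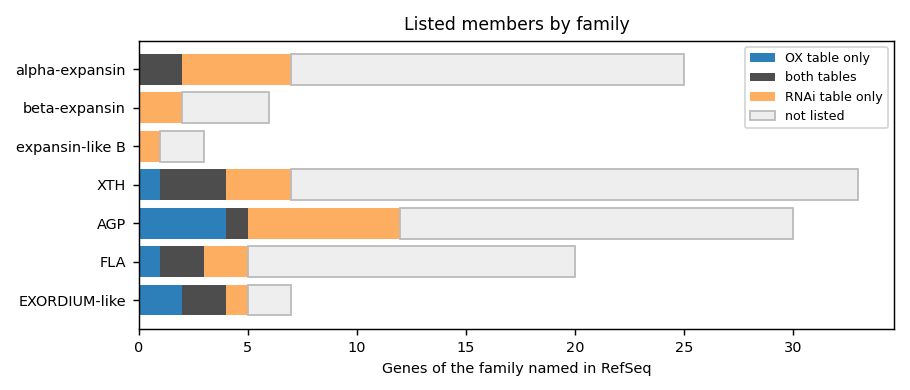
Number of genes of each family that RefSeq names (horizontal axis), split into those listed in the OX tables only, in both comparisons, in the RNAi tables only and in no list. Beta-expansins and the expansin-like B gene are listed in the RNAi tables only, and 5 of 7 EXORDIUM-like genes are listed in at least 1 table.

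The families were represented unevenly, as the bars of listed and unlisted genes by family show. In the OX tables the lower genes were 8% of 25 alpha-expansins, 12.1% of 33 XTH genes, 16.7% of 30 AGP genes, 15% of 20 FLA genes and 57.1% of 7 EXORDIUM-like genes. In the RNAi tables they were 28% of alpha-expansins, 33.3% of 6 beta-expansins, 33.3% of 3 expansin-like B genes, 18.2% of XTH genes, 26.7% of AGP genes, 20% of FLA genes and 42.9% of EXORDIUM-like genes. No beta-expansin and no expansin-like gene was listed in the OX tables, and none of 3 expansin-like A genes was listed anywhere. Whether the families differ in these shares was not tested.

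Of the 7 listed alpha-expansins 2, EXPA7 and EXPA18, are known as expansins of root hairs. A short element in the promoters of root hair genes, the root hair element, was described on these same genes, so their promoters are shown with the element in capitals. The letters are the 250 bases before the RefSeq start of each gene, on the plus strand of TAIR10.1 (EXPA7, chr1:4276255-4276504, and EXPA18, chr1:23331313-23331562).
EXPA7: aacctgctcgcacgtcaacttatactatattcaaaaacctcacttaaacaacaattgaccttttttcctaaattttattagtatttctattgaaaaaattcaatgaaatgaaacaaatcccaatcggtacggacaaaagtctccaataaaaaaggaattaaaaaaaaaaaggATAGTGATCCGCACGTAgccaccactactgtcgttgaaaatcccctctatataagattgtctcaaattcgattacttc
EXPA18: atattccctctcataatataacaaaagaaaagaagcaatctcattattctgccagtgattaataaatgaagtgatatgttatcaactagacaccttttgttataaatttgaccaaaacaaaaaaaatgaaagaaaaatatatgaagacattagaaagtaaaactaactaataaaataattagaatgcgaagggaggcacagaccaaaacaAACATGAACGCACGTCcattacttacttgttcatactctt
Counted from the RefSeq start, the element lay at -78 to -62 in EXPA7 and at -40 to -25 in EXPA18, both on the plus strand. The deposited loci begin downstream of both RefSeq starts. The window of EXPA18 overlaps 1 other annotated gene. Searched on both strands, the element was found in these 2 of 39 members (5.13%), in no other member, and in 0.754% of 27443 genes. Because the element was described on these 2 genes, its count cannot show whether it is enriched among the members. Of other short words, CANNTG, which contains the G-box CACGTG, was in 59.0% of members and 55.3% of all genes, TATAAA in 46.2% and 47.3%, and TTGAC in 35.9% and 44.9%. CACGTG and AAACCCTA were in 0 members, and in 6.49% and 4.49% of all genes. These are matches of letters in 1 window and not sites shown to be used.

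EXPA7 (chromosome 1, 4276519 to 4277899) was 1.07 FPKM in OX and 2.2 FPKM in wild type, 2.05-fold lower in OX (q = 0.00104 in the authors' deposited table). In the RNAi table it was 0.827 FPKM in the first column and 2.07 FPKM in the shared column, 2.51-fold lower. EXPA18 (chromosome 1, 23331676 to 23333110) was listed in the RNAi table only, at 0.363 FPKM in the first column and 1.35 FPKM in the shared column, 3.72-fold lower (q = 0.00288 in the authors' deposited table). Both root hair expansins were thus near the low end of the levels seen. Other root hair genes named as markers moved with them. LRX1, a leucine-rich extensin of root hairs, was 0.606 FPKM in OX and 1.36 FPKM in wild type, and 0.244 FPKM in the first and 1.28 FPKM in the shared column of the RNAi table. PRP3, a proline-rich protein of root hair walls, was 2.07 FPKM in OX and 4.14 FPKM in wild type, and 0.975 FPKM in the first and 3.89 FPKM in the shared column. The regulators RHD6 and RSL4 were in no list, so 2 of 4 root hair markers were lower in OX, and the same 2 had a first column below the shared column in the RNAi table. The endodermis markers CASP1 and CASP5 were both lower in OX and in the first column of the RNAi table, CASP1 at 5.75 FPKM in OX and 16.6 FPKM in wild type. Of 3 leaf markers, 2 were lower in OX (LHCB1.1 and CAB3, 2.27-fold and 2.25-fold) and 1 in the RNAi table (CAB3, 2.30-fold). Whole seedlings were used, so fewer cells of a type and less RNA per cell cannot be told apart, and the part of the marker differences in the members' values was not tested.

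The other alpha-expansins were expressed more strongly. EXPA8 (chromosome 2, 16948863 to 16950557) had 19.0 FPKM in OX and 42.2 FPKM in wild type, and 9.45 FPKM in the first and 40.3 FPKM in the shared column of the RNAi table. It was 2.22-fold lower in OX and 4.26-fold lower in the RNAi table, where it had the largest fold of any expansin. The remaining 4 were listed in the RNAi table only. EXPA3 was at 25.0 FPKM in the first and 57.4 FPKM in the shared column, and EXPA6 at 24.6 and 50.1 FPKM. EXPA4 was at 15.4 and 36.1 FPKM, and EXPA11 at 7.70 and 19.6 FPKM. Their folds ran over a narrow range, 2.04 for EXPA6, 2.29 for EXPA3, 2.35 for EXPA4 and 2.54 for EXPA11. The median alpha-expansin fold was 2.14 in the OX table over 2 genes and 2.51 in the RNAi table over 7 genes.

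Beta-expansins are the branch of the family whose pollen forms in grasses are known as group-1 allergens. EXPB1 was 0.579 FPKM in the first and 1.94 FPKM in the shared column, 3.35-fold lower, and EXPB3 was 8.36 and 21.3 FPKM, 2.55-fold lower. EXLB1, an expansin-like gene whose wall-loosening activity is not established, was 2.27 and 5.43 FPKM, 2.39-fold lower. All 3 had a q-value of 0.000199 in the authors' deposited table.

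**Figure D2:**
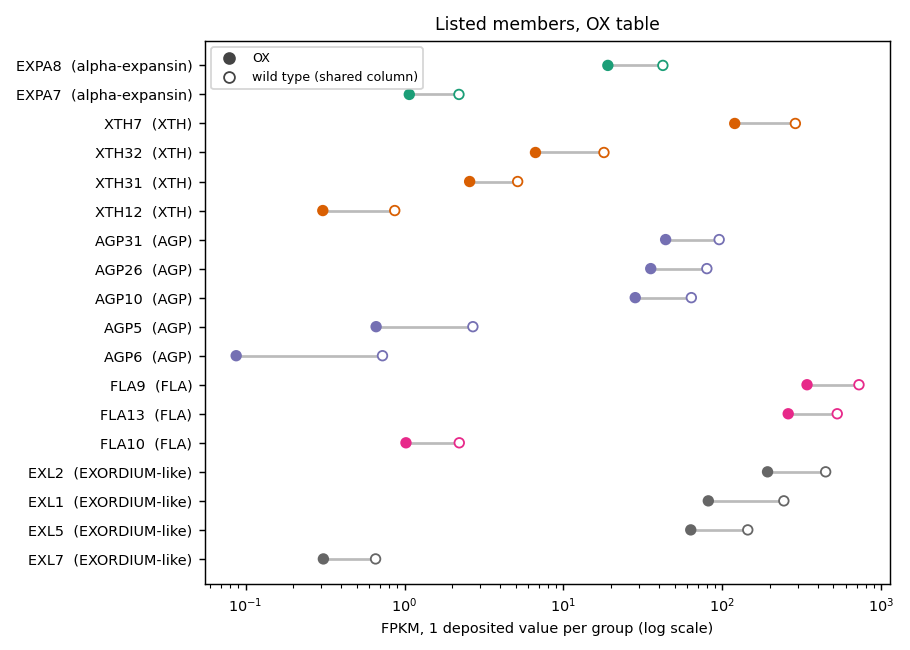
FPKM of the 18 members listed in the OX tables (horizontal axis, log scale), 1 row per gene, with OX as filled and wild type as open circles, coloured by family. Every filled circle lies left of its open circle, and levels in wild type run between 0.657 FPKM for EXL7 and 723.259 FPKM for FLA9.

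Among the XTH genes 7 were listed, 4 in the OX tables and 6 in the RNAi tables. XTH enzymes carry a short conserved stretch that holds the catalytic residues, and its 27 coding bases are shown to compare the 7 listed genes, with capitals for bases unlike the most common base at that position among the 7.
XTH7: gaCgagCttgatttTgagttCttaggA
XTH9: AaCgaATtCgatttTgagttCttaggg
XTH12: gatgagattgatttcgagttCttGggT
XTH14: gatgagattgaCttcgagtttttGggA
XTH16: gaCgagatAgaCttTgagtttCtTggT
XTH31: gatgagGtCgatAtcgagtttCtaggg
XTH32: gatgagGtAgaCAtAgaAtttttGggg
The stretches lie in the coding sequence, on TAIR10.1 at chr4:17776854-17776880 (minus strand) for XTH7, chr4:1416538-1416564 (plus) for XTH9, chr5:23301145-23301171 (minus) for XTH12, chr4:13130780-13130806 (plus) for XTH14, chr3:8550598-8550624 (plus) for XTH16, chr3:16447882-16447908 (minus) for XTH31 and chr2:15474073-15474099 (minus) for XTH32. Of the 27 positions 14 had 1 base in all 7 genes. The other 13 were mostly at codon position 3, with 9 there, 4 at codon position 1 and 0 at codon position 2.

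XTH12 (chromosome 5, 23300321 to 23301605) was 0.306 FPKM in OX and 0.868 FPKM in wild type, 2.84-fold lower in OX (q = 0.00846 in the authors' deposited table). In the RNAi table it was 0.0771 FPKM in the first column and 0.818 FPKM in the shared column, 10.6-fold lower (q = 0.0393 in the authors' deposited table), which was the largest fold of the 49 entries on the lowest first-column value. XTH14, an enzyme known from roots, was listed in the RNAi table only, at 0.740 FPKM in the first and 2.57 FPKM in the shared column, 3.47-fold lower.

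XTH32 and XTH31 were nearly alike in both comparisons. XTH32 had 6.67 FPKM in OX and 18.0 FPKM in wild type, and 6.27 FPKM in the first and 16.8 FPKM in the shared column of the RNAi table, folds of 2.70 and 2.67. XTH31, an enzyme with xyloglucan hydrolase activity, had 2.57 FPKM in OX and 5.15 FPKM in wild type, and 2.35 FPKM in the first and 4.86 FPKM in the shared column, folds of 2.00 and 2.07. Its OX fold lies just inside the limit of 2 that the lists apply. The highest XTH levels belonged to genes listed in 1 comparison each. XTH7 was 119.562 FPKM in OX and 287.731 FPKM in wild type, 2.41-fold lower in OX. XTH9 was 127.671 FPKM in the first and 307.082 FPKM in the shared column, 2.41-fold lower, and XTH16 was 73.7 and 163.857 FPKM, 2.22-fold lower. Median XTH folds were 2.55 in the OX table and 2.54 in the RNAi table.

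AGPs gave the longest list, 12 genes, of which AGP31 alone was in both comparisons. AGP31 (chromosome 1, 9889125 to 9890993), a wall protein with a histidine stretch and a proline-rich region, had 43.9 FPKM in OX and 95.4 FPKM in wild type, and 32.0 FPKM in the first and 90.5 FPKM in the shared column of the RNAi table. It was 2.17-fold lower in OX and 2.83-fold lower in the RNAi table. The 4 AGPs listed in the OX tables only fell into a pair of low genes and a pair of well-expressed ones. AGP6, known for its role in pollen, was 0.0872 FPKM in OX and 0.727 FPKM in wild type, 8.33-fold lower (q = 0.0457 in the authors' deposited table). AGP5 was 0.663 FPKM in OX and 2.69 FPKM in wild type, 4.06-fold lower (q = 0.00185 in the authors' deposited table). These were the 2 largest member folds of the OX table, and they were the only ones above 3.

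AGP26 had 35.4 FPKM in OX and 79.8 FPKM in wild type, and AGP10 had 28.3 FPKM in OX and 63.8 FPKM in wild type, each 2.25-fold lower. Both overlap a protein-coding gene on the opposite strand, AGP26 with AT2G47935 over 432 bases and AGP10 with AT4G09035 over 337 bases. Strand use in the authors' counting is not given in the sources used here, so reads of the 2 partners may not have been told apart. Of all windows of 50 bases along a transcript, 45.0% in AGP26, 29.4% in AGP10 and 20% in AGP16 also occurred in a transcript of another gene, on either strand. For AGP26 and AGP10 all of them lay in the same overlapping genes, AT2G47935 and AT4G09035, and for AGP16 all lay in AT2G46320. These transcripts are those of RefSeq, 830 bases for AGP10 and 944 for AGP16, longer than the deposited loci of 584 and 748 bases. No annotated gene overlaps the deposited locus of AGP16, so its share does not describe that locus. No shared window was found in 34 of the 39 members.

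The 7 AGPs listed in the RNAi table only covered a wide range of levels. AGP16 (chromosome 2, 19018508 to 19019255), a small arabinogalactan peptide, was 364.89 FPKM in the first and 730.693 FPKM in the shared column, the highest member level of that table and the 7th of 673 nuclear entries of its list. Its fold of 2.00 lies just inside the limit. AGP7 was 44.9 and 92.1 FPKM, AGP1 was 23.1 and 50.7 FPKM, and AGP25 was 5.12 and 13.1 FPKM, folds of 2.05, 2.2 and 2.57. The peptide gene AGP41 was 1.52 FPKM in the first and 6.43 FPKM in the shared column, 4.22-fold lower, the largest AGP fold of the RNAi table. AGP3 was 1.45 and 4.27 FPKM, 2.94-fold lower. AGP30, known from root regeneration and seed germination, was 0.468 and 1.21 FPKM, 2.59-fold lower (q = 0.00471 in the authors' deposited table). Median AGP folds were 2.25 in the OX table and 2.58 in the RNAi table.

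**Figure D3:**
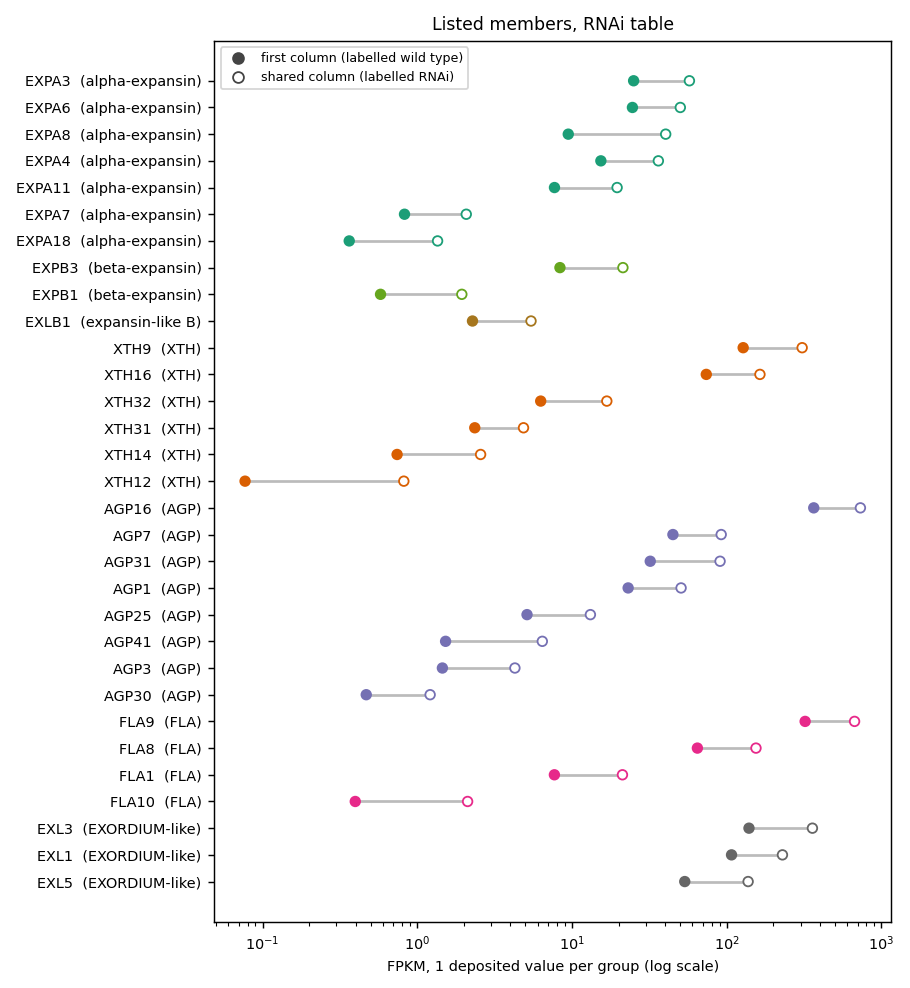
FPKM of the 31 members listed in the RNAi tables (horizontal axis, log scale), 1 row per gene, with the first column as filled and the shared column as open circles, coloured by family. Every filled circle lies left of its open circle, the distance being widest for XTH12 (10.6-fold) and narrowest for AGP16 (2.00-fold).

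The FLA genes FLA9 and FLA13 had the highest member levels of the OX table. FLA9 (chromosome 1, 982506 to 983540) was 340.76 FPKM in OX and 723.259 FPKM in wild type, and 321.042 FPKM in the first and 669.925 FPKM in the shared column of the RNAi table. It was 2.12-fold lower in OX and 2.09-fold lower in the RNAi table, and by shared-column level it was the 16th of 745 nuclear entries of the OX list and the 9th of 673 of the RNAi list. FLA13, listed in the OX table only, was 259.425 FPKM in OX and 527.801 FPKM in wild type, 2.03-fold lower. FLA10 lay at the other end. It was 1.02 FPKM in OX and 2.21 FPKM in wild type, 2.16-fold lower, and 0.397 FPKM in the first and 2.11 FPKM in the shared column, 5.32-fold lower. FLA1, known from shoot regeneration in tissue culture, was 7.69 and 21.2 FPKM in the first and shared columns, and its locus lies 6760 bases from SRT1 on chromosome 5. FLA8 was 64.6 and 154.484 FPKM. Their folds were 2.75 and 2.39. FLA8 and FLA10 share 4 windows of 50 bases, 0.223% of the windows of FLA8 and 0.211% of those of FLA10.

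Of the EXORDIUM-like genes, 3 were listed with shared-column levels over 100 FPKM in each comparison. EXL1, also called PHI-1 for its response to phosphate, was 81.5 FPKM in OX and 243.559 FPKM in wild type, 2.99-fold lower in OX. In the RNAi table it was 107.382 FPKM in the first and 229.04 FPKM in the shared column, 2.13-fold lower. EXL5 was 63.2 FPKM in OX and 144.412 FPKM in wild type, and 53.5 FPKM in the first and 137.42 FPKM in the shared column, folds of 2.28 and 2.57. EXL2 was listed in the OX table only, at 192.325 FPKM in OX and 446.338 FPKM in wild type, 2.32-fold lower. EXL3 was listed in the RNAi table only, at 139.204 FPKM in the first and 357.803 FPKM in the shared column, 2.57-fold lower. EXL7 was the 1 low member, 0.309 FPKM in OX and 0.657 FPKM in wild type, 2.13-fold lower (q = 0.0369 in the authors' deposited table). EXL2 lies 16616 bases from AGP1 on chromosome 5, and EXL1 lies 64020 bases from AGP5 on chromosome 1.

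Levels and folds of all members together are set here beside those of their lists. The median level in wild type was 53.0 FPKM for the 18 members of the OX lower list and 9.12 FPKM for all 832 entries of that list. The median shared-column level was 21.3 FPKM for the 31 members of the RNAi list and 4.52 FPKM for all 749 entries. Median folds were 2.25 for members and 2.60 for all entries in the OX list, and 2.55 and 2.50 in the RNAi list. Over nuclear regular entries with a symbol they were 2.37 in the OX list and 2.43 in the RNAi list. A shared-column level above 100 FPKM was found for 6 of 18 members and 133 of 832 entries in the OX list, and for 8 of 31 members and 75 of 749 entries in the RNAi list. Whether these medians differ beyond what the choice of genes gives was not tested. The authors' deposited table gave the smallest p-value it contains, 5e-05, to 13 of 18 members in the OX tables and 27 of 31 in the RNAi tables. The share of all entries with this p-value is not given here, so these counts do not set the members apart.

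**Figure D4:**
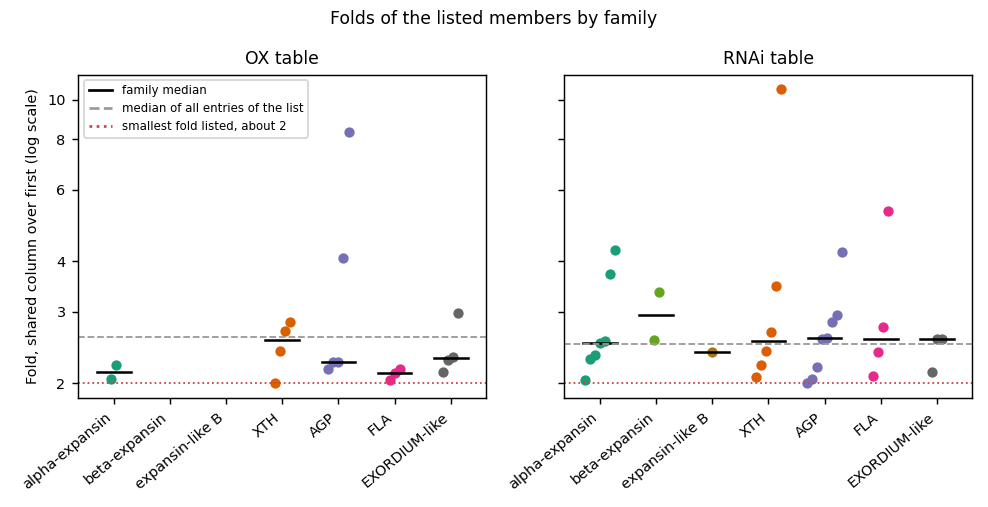
Fold of each listed member (shared column over first column, log scale) by family, in the OX table on the left and the RNAi table on the right, with the family median as a bar, the median of all entries of the list as a dashed line and the limit of the lists, 2, as a dotted line. Most points lie between 2 and 3 in both panels, with 2 above 3 in the OX table and 7 above 3 in the RNAi table.

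As the points of fold by family show, family medians lay between 2.12 for FLA and 2.55 for XTH in the OX table. In the RNAi table they lay between 2.39 for expansin-like B, which is 1 gene, and 2.95 for beta-expansins, which are 2 genes. With folds taken from log2(FPKM + 1) the beta-expansin median in the RNAi table was 2.12, below that of FLA, 2.30. Folds of 3 or more were found in 2 of 18 OX entries, AGP5 and AGP6, and in 7 of 31 RNAi entries, EXPA8, EXPA18, EXPB1, XTH12, XTH14, AGP41 and FLA10. Of these 9 genes, EXPA8 alone had a shared-column level above 10 FPKM. A fold of a gene near or below 1 FPKM rests on few fragments, of unknown number.

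Listed in both comparisons were 10 of the 39 genes: EXPA7, EXPA8, XTH12, XTH31, XTH32, AGP31, FLA9, FLA10, EXL1 and EXL5. Of the 2507 genes in any list, 529 others with a regular locus, SRT1 left out, were also in both. The 2507 also count the members, SRT1 and irregular loci, so 529 of 2507 understates the share of genes in both. The overlap is therefore not read as particular to the members. The comparisons share the wild-type libraries, so the number of members in both and their common direction are no independent result. The 2 values of each gene are given side by side. The log2 ratio of the first over the shared column was -1.15 in OX and -2.09 in the RNAi table for EXPA8, -1.50 and -3.41 for XTH12, and -1.11 and -2.41 for FLA10, the 3 genes furthest apart. It was -1.43 and -1.42 for XTH32 and -1.09 and -1.06 for FLA9, which were nearly equal. EXL1 went the other way, with -1.58 in OX and -1.09 in the RNAi table. The distance for XTH12 rests on values that were all below 1 FPKM. On the log2(FPKM + 1) scale its ratios were -0.516 in OX and -0.755 in the RNAi table. Those of EXL1 were -1.57 and -1.09 on that scale, further apart than those of XTH12. No test of the difference between the lines was possible.

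**Figure D5:**
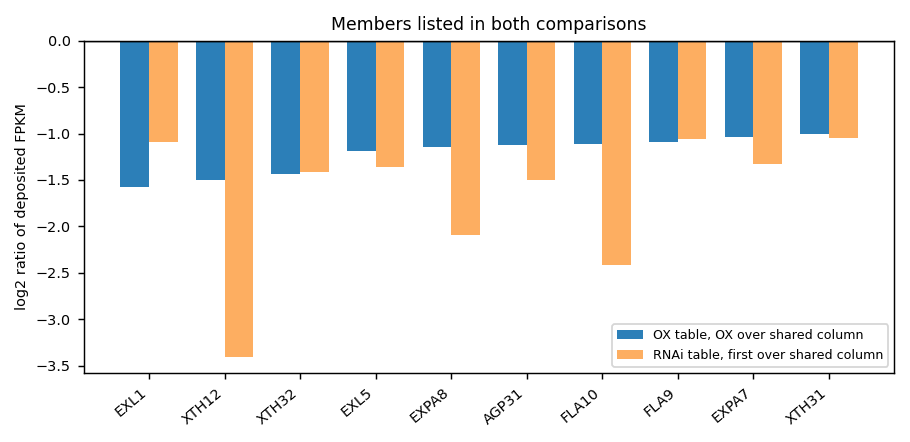
Log2 ratio of the deposited FPKM values for the 10 members listed in both comparisons, OX over wild type in blue and the first over the shared column of the RNAi table in orange. All bars are below 0, and the pairs for XTH12, FLA10 and EXPA8 are the most unequal, as the bars of the genes listed in both comparisons show. Every XTH12 value is below 1 FPKM.

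Other genes that make or modify the wall were counted as well, apart from LRX1 and PRP3 above. Of 38 named genes of cellulose synthesis, xyloglucan synthesis and trimming, pectin, prolyl hydroxylation and glycosylation of AGPs, and growth regulation, 35 had an identifier. Of these, 34 were not listed in the OX tables and 1 was, BGAL10, the galactosidase that trims xyloglucan side chains. BGAL10 was 14.9 FPKM in OX and 7.31 FPKM in wild type, 2.04-fold higher (q = 0.00015 in the authors' deposited table), the opposite direction to the XTH genes. In the RNAi tables all 35 were not listed. Most genes of the genome are in no list either, since 2.60% were listed as lower and 3.80% as higher in OX, and 2.38% and 1.25% were in the 2 RNAi lists, so these counts of unlisted genes are close to the background. None of the 9 cellulose synthesis genes, such as CESA1 and CESA3, was listed in either comparison.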

How the data were processed

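Seedling RNA was sequenced as 3 libraries for each of OX, RNAi and wild type, which were grouped by sample title. The submitters' processing notes name TopHat2 2.1.1, Cufflinks 2.2.1, Cuffdiff and TAIR10, with no role or order. The authors deposited 4 lists and 2 overlap tables. Per the file headers, each list gives 1 FPKM value per group, a log2 ratio, a fold ratio or score made from it, a p-value and a q-value for each gene, as the authors deposited them. Because values per library were not analysed here, the planned limma test could not be run and listed members were counted instead.

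Folds were recomputed from the 2 deposited FPKM values without a pseudocount, as the larger value over the smaller. For every member this is the shared column over the first column. Log2 values are first over shared. Full values are given for every member, which includes the named-gene rule of members in both comparisons and the 3 largest folds per family. The members and gene lists were chosen with earlier results of these data known. Loci are TAIR10 as deposited, counted from 1. RefSeq TAIR10.1 gave products, family sizes and sequences: 2399 of 2400 nuclear listed genes overlapped their RefSeq gene on the same chromosome. The root hair element was searched as a pattern with ambiguous bases. Shared stretches are 50-base windows of RefSeq transcripts, either strand. The catalytic stretch of XTH was located by translating RefSeq coding sequences, and a tie for the most common base went to the first in the order A, C, G, T. The scripts used Python 3.11.15, pandas 2.3.3, numpy 2.4.6 and matplotlib 3.10.9 and were tested on simulated lists. Alternatives were a higher fold limit, a minimum level, a pseudocount, a stricter q-value, leaving out irregular loci and other definitions of the members.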

Additional observations from a re-analysis of the deposited data

How the results depend on the processing

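In every setting tried, 0 members were higher in OX and 0 had a first column above the shared column in the RNAi tables. Titles and labels of the RNAi tables, taken alone, give the opposite direction. Settings that only leave out entries or add a pseudocount could not have given any other result. The definition by RefSeq product could have, but AT4G16980 was the only gene it brought in. The definition with EXO and AT4G16980 added was chosen with their direction known, so it is no further check. The 18 members lower in OX numbered 2 with a fold of at least 3, the 31 of the RNAi tables numbered 7, and the 10 listed in both numbered 0. With that limit the median fold was 6.20 in the OX table and 4.22 in the RNAi table, because the limit itself leaves out every fold below 3. The OX value rests on AGP5 and AGP6 alone. The members in both comparisons numbered 6 when the higher FPKM value had to be at least 5, and 6 when folds on the log2(FPKM + 1) scale had to reach 2. On that scale the counts were 12 and 22, and 10 of 49 member folds moved by over 1.5 times, to values between 1.27 and 2.23, all in members of low level. With a q-value of at most 0.01 the counts were 16 and 30, without irregular loci they stayed 18 and 31, and by RefSeq product they were 14 and 27. Alternatives chosen after seeing the data gave 14 and 28 without the EXORDIUM-like genes, and 20 and 33 with EXO and AT4G16980 added. No paired analysis was possible because the deposited tables hold 1 value per group, and leaving out a replicate could not be run for the same reason. Depth is unknown, so the precision of single folds, above all those of AGP6, XTH12 and EXL7, cannot be given.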

Other observations

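A pair of relatives of the members carry symbols that the selection by name does not catch. EXO (EXORDIUM) had a value of 131.647 FPKM in OX and 301.937 FPKM in wild type, 2.29-fold lower in OX, and 132.515 FPKM in the first and 288.136 FPKM in the shared column of the RNAi table, 2.17-fold lower. AT4G16980, annotated as of the arabinogalactan-protein family, was 439.597 FPKM in OX and 1187.77 FPKM in wild type, 2.70-fold lower in OX, and 482.679 FPKM in the first and 1110.74 FPKM in the shared column, 2.30-fold lower. Its level was above that of every AGP and FLA member.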
